A study of Zea mays subsp. mays with 8 samples.

Results

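Dense runs of transcription start sites that were found in maize shoots and in no root set are described here. A run is a stretch of a chromosome with at least 10 start-site clusters whose neighbouring dominant sites, the most used position of each cluster, lie at most 2000 bp apart. Of 97 runs in the B73 shoot set, 58 overlapped no run of either root set, and of 108 runs in the shoot set named Mo17_S, 70 overlapped none. They merge to 74 regions on all 10 chromosomes. Inside these regions lie 3532 of the 75681 listed clusters of all sets, 1493 from B73_S, 1711 from Mo17_S, 150 from B73_R and 178 from Mo17_R. The regions were thus selected on which clusters are listed in shoot and in root sets and how close they lie, so every difference between the tissues below is a description and supports nothing further.

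Start sites were mapped by CAGE (cap analysis of gene expression), in which the capped 5′ ends of RNA are captured and a 27 bp tag is read from each. Its 8 libraries come from wild-type seedlings aged 14 days, as 2 libraries each of B73 shoots, A632 shoots, B73 roots and A632 roots, all untreated and grown under days of 16 h at 27 °C and nights of 8 h at 21 °C. B73 and A632 are inbred lines, 5 seedlings were pooled per library, and the RNA input was 5 µg. B73 roots had 16 PCR cycles and the other groups 14, so cycle number and the B73 root group cannot be told apart. The files hold 1 set of pooled values for B73 shoot (B73_S), 1 for B73 root (B73_R), and a pair named Mo17_S and Mo17_R. Mo17 is another inbred line and stands in no label of the libraries, so the pair is called by its own names and no difference between lines is claimed. No set is split by library, so values have no replicate error, and the labelled tissues could not be checked against marker genes because no gene is named for any cluster. Dominant sites held 2394924 tags in B73_S, 3409185 in Mo17_S, 1267305 in B73_R and 2797561 in Mo17_R. Positions are as deposited, on a genome build that the sources used here do not name.

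CAGE clusters of nuclear genes come in sharp forms, with most tags at a few neighbouring positions, and broad forms spread over many positions. Shoots carry chloroplasts, which transcribe a genome of their own, and the nuclear chromosomes of maize hold inserted copies of plastid DNA, so a short tag from a plastid transcript can match several nuclear places. Whether the runs lie in plastid-like copies was not tested, since no genome sequence or gene annotation of the files' build was used. The sources used here do not say how the authors placed tags that match several places.

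The members carried 11.7% of the deposited signal in B73_S and 10.05% in Mo17_S, against 0.156% in B73_R and 0.247% in Mo17_R. In clusters, they made up 7.51% of the B73_S list and 7.48% of the Mo17_S list, against 1.03% of the B73_R list and 0.970% of the Mo17_R list. Of the tags at dominant sites, the members held 13.6% in B73_S and 10.9% in Mo17_S, against 0.199% in B73_R and 0.285% in Mo17_R. The placement of tags that match several places is not given, so it is unknown whether these shares count a tag more than 1 time. A region held a median of 15 clusters in B73_S and 16 in Mo17_S, against 1 in B73_R and 1.5 in Mo17_R. The highest counts were 82 clusters in B73_S and 102 in Mo17_S, against 9 in each root set. Roots were not empty in most regions: B73_R listed at least 1 cluster in all but 14 regions and Mo17_R in all but 11, and 7 regions had none in either. Since each set is a list of clusters above a minimum, a region with no root cluster does not show an absence of tags.

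**Figure D1:**
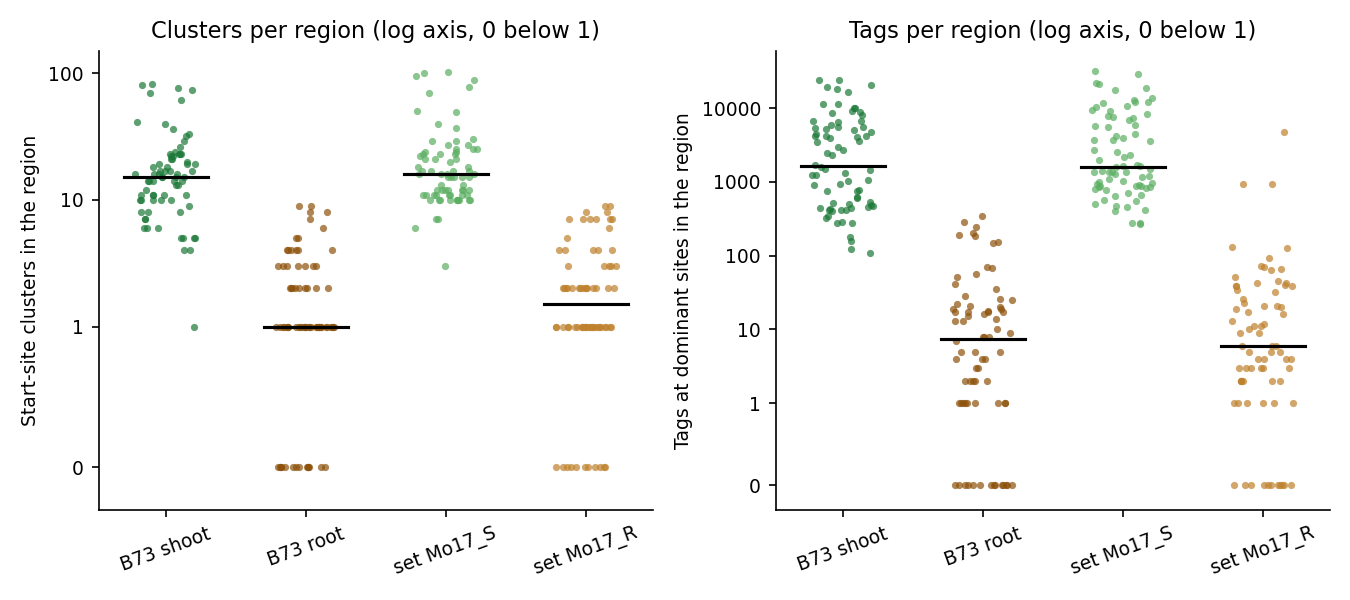
Clusters (left) and tags at dominant sites (right) in each of the 74 regions, by set, on log axes that turn linear below 1 so that 0 can be shown; each point is a region and each bar the median. Shoot medians are 15 clusters in B73 shoot and 16 in Mo17_S, above root medians of 1 in B73 root and 1.5 in Mo17_R.

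The region with the most clusters lies at chr7:44728702-44733554. It had 82 clusters with 20890 tags in B73_S and 102 with 28765 tags in Mo17_S, against 7 with 191 tags in B73_R and 8 with 92 tags in Mo17_R. The region with the highest summed signal, chr2:84568893-84571672, had 76 clusters with 23872 tags in B73_S and 94 with 32279 tags in Mo17_S, against 9 with 150 tags in B73_R and 9 with 131 tags in Mo17_R. Both shoot sets were far above both root sets in tags at these places, and the root lists still held 7 to 9 clusters.

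Other large regions had fewer root tags. chr1:234736552-234739684 had 10199 tags in B73_S and 10841 in Mo17_S, against 19 in B73_R and 11 in Mo17_R. chr1:15180345-15181957 had 8987 tags in B73_S and 8231 in Mo17_S, against 13 in B73_R and 40 in Mo17_R. chr4:109949529-109953791 had 9275 tags in B73_S and 21508 in Mo17_S, against 35 in B73_R and 39 in Mo17_R. At chr9:62306268-62311396, 73 clusters with 4744 tags in B73_S and 77 with 5701 in Mo17_S stood against no listed cluster in B73_R and 2 with 6 tags in Mo17_R. Of these large regions, the last one shares its site spacing with no other run, as described next, and the others do in at least 1 shoot set.

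Some of the runs repeat one another. Runs of a set were laid over each other by 1 shift, in the same or the opposite direction, and linked where at least 8 dominant sites, and at least 50% of the sites of the smaller run, fell on exactly the same spacing. Linked runs are called copies of a pattern here, for their spacing alone. Of 1653 pairs of B73_S runs, 13 were linked, joining 15 runs into 4 families of 5, 5, 3 and 2 runs. Of 2415 pairs of Mo17_S runs, 17 were linked, joining 15 runs into families of 4, 4, 4 and 3. A linked pair shared 9 to 25 sites in B73_S and 8 to 39 in Mo17_S, while the median unlinked pair shared 3 in each set. The highest count of an unlinked pair was 32 in B73_S and 22 in Mo17_S, in longer runs where it fell short of 50% of the smaller one, so the number of shared sites alone does not separate the pairs.

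Strand and tags were not used to link the runs. All 198 shared sites of linked pairs in B73_S, and all 349 in Mo17_S, lay on the strand that the direction of the match gives. That is the same strand for runs laid in the same direction and the other strand for runs turned round. Most clusters of a run lie on 1 strand, with medians of 96.2% in B73_S and 98.9% in Mo17_S among shoot-only runs that share spacing with any run. The sites of a pair are thus not separate outcomes of strand. In B73_S, 8 linked pairs were turned round and 5 were not, and in Mo17_S the counts were 9 and 8. Tags at shared sites were within 1.5-fold of each other at 180 of the 198 (90.9%) in B73_S and 321 of the 349 (92.0%) in Mo17_S. A site found in more than 2 runs counts in each linked pair that shares it, so 198 and 349 are not counts of distinct positions. Clusters of a single position had at least 16 tags in B73_S and 18 in Mo17_S. No such share was taken for sites that do not match. Pearson's r of log2 tags over the sites of a linked pair ran from 0.937 to 0.996 in B73_S and from 0.854 to 0.996 in Mo17_S, over the 8 to 39 sites of each pair, all counted in the same pooled set.

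A B73_S family of 5 runs joins chr1:15180345-15181957 (69 clusters), chr1:234736552-234739684 (81), chr7:44717977-44719589 (33), chr10:47480047-47480540 (21) and chr10:49743950-49744335 (19). The first is turned round against the rest, and 2 of the runs span the same 1613 bp. At the site found in all 5 of them, 731 bp from the start of the pattern, B73_S had 318, 268, 270, 290 and 284 tags, in the order of the runs. The SD over the 5 copies was 20.1 tags around a mean of 286, and the square root of that mean, the spread that counting alone gives independent samples, is 16.9. At the second site found in all 5, 773 bp from the start, tags were 107, 104, 84, 102 and 91. At these 2 sites, of 56 found in at least 2 of the runs, the copies thus held similar numbers of tags on 3 chromosomes. The runs differ in length, and their summed tags in B73_S ran from 1307 to 10199. At 731 bp, Mo17_S had a dominant site only at chr1:234737283 (376 tags) and chr7:44718708 (315). In Mo17_S, the first 4 of these runs form a family as well, and 370, 400, 337 and 369 tags lay at its site 773 bp from the start. The fifth was no run in Mo17_S, where it had 7 clusters with 822 tags, against the 19 clusters with 1307 tags of B73_S.

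**Figure D2:**
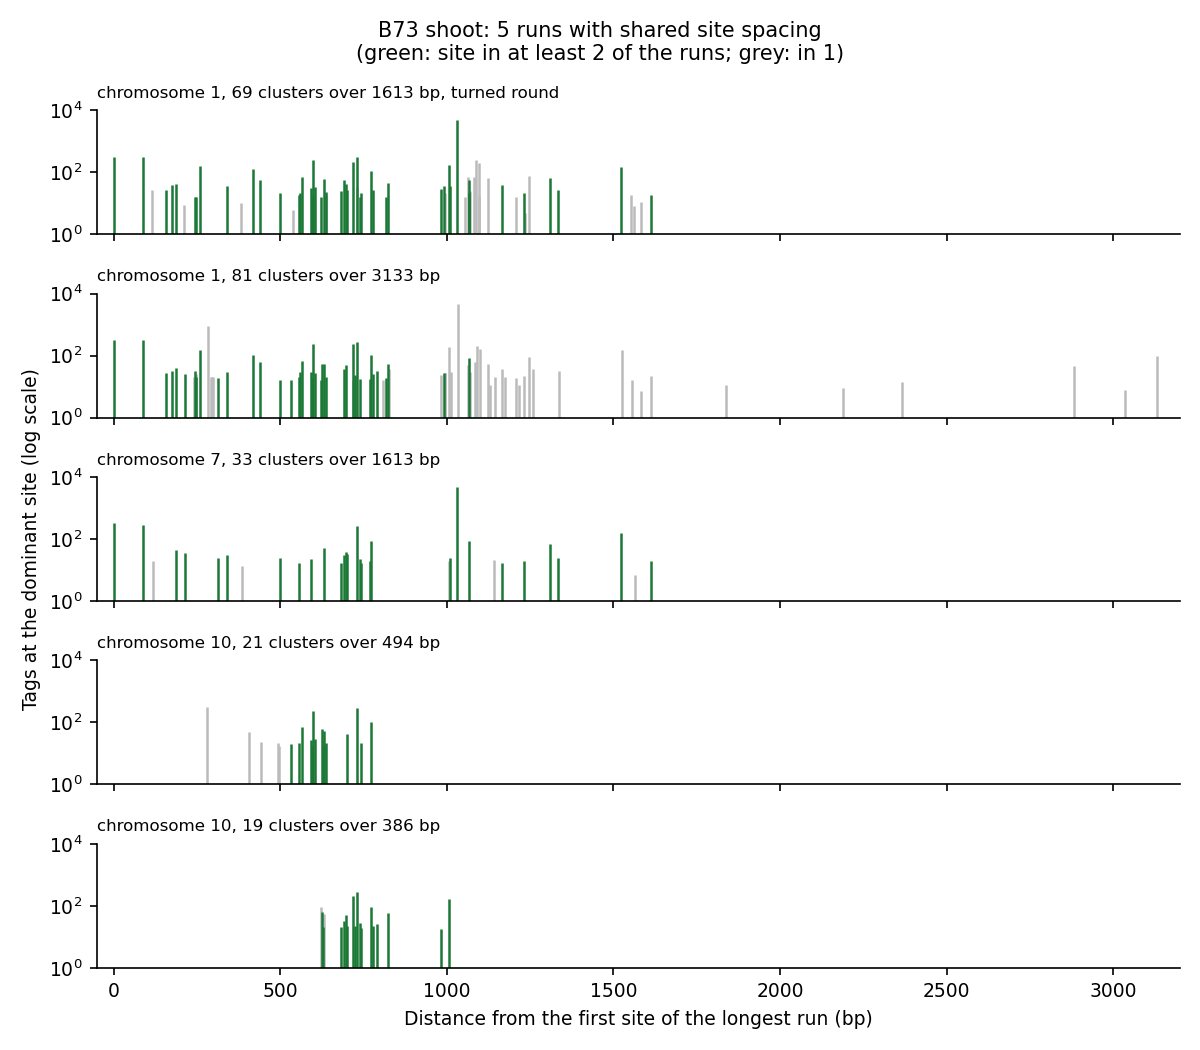
Tags at each dominant site (log scale) along the 5 runs of a B73 shoot family with copies on chromosomes 1, 7 and 10, after the shift and turn that match them, by distance from the first site of the longest run in bp. Green sites fall on exactly the same position in at least 2 runs and grey sites in 1. The site at 731 bp has 268 to 318 tags in all 5. Grey sites can lie 1 bp from a green one: the longest run has 4745 tags at 1032 bp, and 2 others have 4718 and 4720 at 1031 bp.

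The strongest repeated site is in the second Mo17_S family, which joins chr1:197007007-197008131 (49 clusters), chr1:234338049-234338292 (25), chr4:109949529-109953791 (88) and chr7:44728702-44733554 (102). At its shared site B73_S had 5285, 5329, 5272 and 5249 tags, in the order of the runs. Mo17_S had 10641, 10787, 10805 and 10699 tags at the same positions. Each set thus gave nearly equal tags to the 4 copies at this site, at a level of its own. In Mo17_S the SD over copies was 76.9 tags, under the 103.6 that counting would give around their mean of 10733. B73_R listed 19, 19, 17 and 24 tags there, and Mo17_R listed 19 and 18 on chromosome 1 and no cluster with that dominant site on chromosomes 4 and 7. The same site stood at chr10:47467933, in a run that overlaps root runs, with 5400 tags in B73_S and 10726 in Mo17_S. At 3 other linked runs that overlap root runs, the matching positions chr1:368036, chr3:165547660 and chr5:210030760 were a dominant site in no set. In each, a dominant site lay 1 bp away on the same strand, with 5436, 5247 and 5384 tags in B73_S and 11030, 10719 and 10628 in Mo17_S. In B73_S the family of this pattern joins the runs at chr1:197007007-197008132 (40 clusters), chr1:234338046-234338292 (26), chr2:84569046-84571625 (76), chr3:198220703-198221096 (15) and chr7:44728702-44733554 (82). No site could be in all 5, since the second of these runs covers 2218 to 2464 bp from the start and the fourth 3541 to 3934 bp.

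A single shift does not line up all of the runs in that B73_S family. At 2173 bp from its start lay 4192 tags at chr1:197007695 and 4072 at chr7:44730875, against 12 at chr2:84571625. The chr2 run, however, had 5290 tags at 2249 bp, while chr1:197007744 and chr7:44730924 had 5285 and 5249 at 2222 bp. In this stretch the chr2 run is thus out of step, and the 12 tags do not show unequal copies. Tags in other families were not equal at every site. The third B73_S family joins chr5:210019506-210022235 (32 clusters), chr9:37560811-37561547 (23) and chr10:100031905-100034858 (29). Its strongest shared site had 184, 190 and 246 tags in B73_S. The third Mo17_S family, with runs at chr2:65624658-65627145, chr3:110465053-110467045, chr7:44752614-44753531 and chr9:88186954-88188372, had 56 to 67 tags in Mo17_S at the strongest site found in all 4. At a site found in 3 of them, 2022 bp from the start of the pattern, tags in Mo17_S were 153 on chromosome 2, 163 on chromosome 7 and 200 on chromosome 9.

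**Figure D3:**
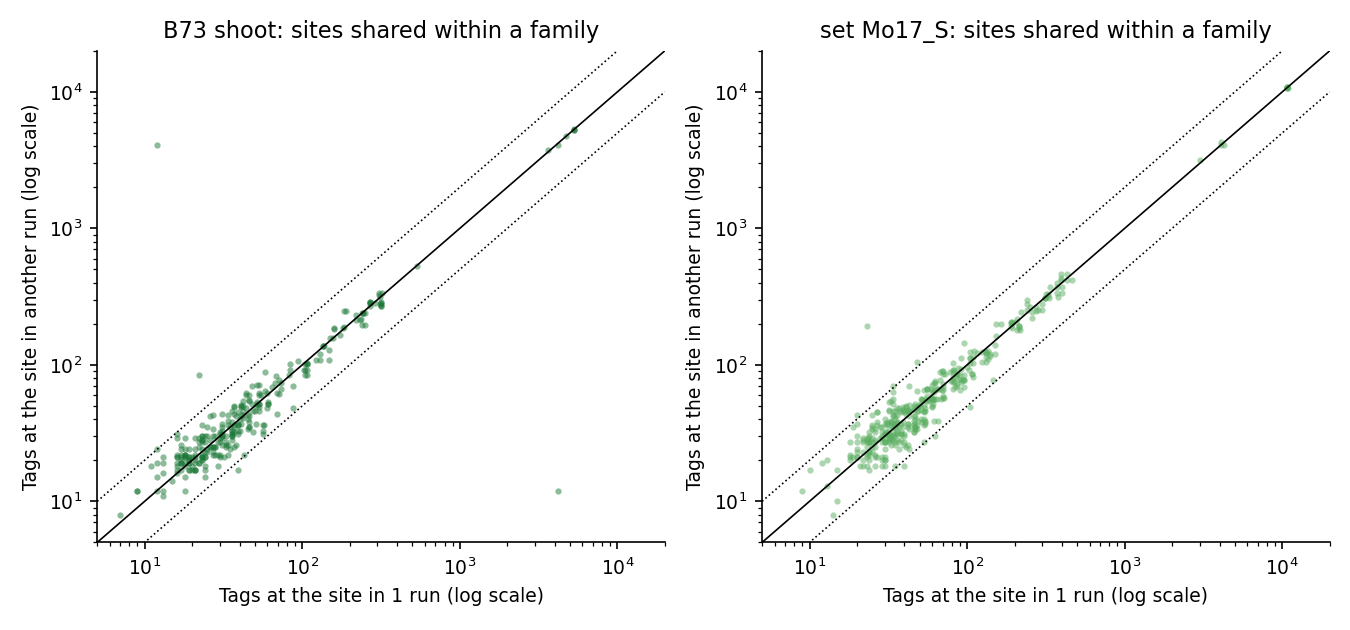
Tags at each shared site in 1 run of a family (x axis) and in another (y axis), both on log scales, for B73 shoot and Mo17_S; each point is a site in a pair of runs, the solid line marks equality and dotted lines a 2-fold difference. Most points lie between the dotted lines up to the site with 10641 to 10805 tags. The few exceptions include the position with 4192 and 12 tags, where 1 of the runs is out of step with the others.

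One pair of copies lies close together. The runs at chr1:247787254-247788228 (19 clusters) and chr1:247817732-247818706 (18 clusters) of B73_S span 975 bp each, face opposite ways and share 13 sites. Their strongest sites had 3652 tags at chr1:247788188 and 3742 at chr1:247817772 in B73_S. Mo17_S had no cluster with these dominant sites, and its overlapping clusters peaked 5 bp and 14 bp away with 395 and 433 tags. At the next shared site, B73_S had 129 and 121 tags and Mo17_S had 239 and 219.

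The repeated patterns also ran on into the longer runs found in roots too. Counting those as partners, 23 of 58 B73_S runs and 21 of 70 Mo17_S runs shared their spacing with at least 1 other run of their set. Among runs that overlap root runs, the counts were 29 of 39 in B73_S and 29 of 38 in Mo17_S. Between the kinds of run there were 92 linked pairs in B73_S and 98 in Mo17_S, sharing up to 51 and 70 sites. At their shared sites, again counted in each pair, strand went with the direction of the match at 1785 of 1785 sites in B73_S and 2345 of 2353 in Mo17_S. As above, the sites of a pair are not separate outcomes of strand. Pearson's r of log2 tags over the shared sites of such a pair ran from 0.185 to 0.992 in B73_S and from 0.418 to 0.993 in Mo17_S, so tags were not alike in every pair. Tags were within 1.5-fold at 90.8% of these sites in B73_S and 89.9% in Mo17_S. The partner with the most links was chr10:90145746-90152547 in B73_S, with 206 clusters and links to 13 shoot-only runs, and chr3:165543583-165550289 in Mo17_S, with 273 clusters and links to 14. Of the 54 regions that were runs in both shoot sets, 19 had shared spacing in both, 30 in neither, 3 in B73_S only and 2 in Mo17_S only.

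A link needs at least 8 sites on exactly the same spacing, which a run with more clusters can reach more easily, so part of what follows is set by the rule: runs with shared spacing had a median of 24 clusters in B73_S and 27 in Mo17_S, against 14 and 13 without. Runs counted as without it can still share sites below the 50% limit. The Mo17_S run at chr2:84568893-84571672 is among them and shared 36 sites with another run. With shared spacing, a run had a median of 22.4 clusters per kb in B73_S and 22.5 in Mo17_S, against 11.2 and 12.2 without. A single cluster held a median of 39.2% of the run's signal in B73_S and 37.7% in Mo17_S with shared spacing, against 77.8% and 48.6% without. The strongest cluster also lay elsewhere. Counted from the upstream end of the main strand, it lay in the first 20% of the span in 23 of 35 B73_S runs and 32 of 49 Mo17_S runs without shared spacing, against 5 of 23 and 4 of 21 with it. In 16 and 17 of the runs without shared spacing it both lay there and held at least 50% of the signal. The other clusters of those runs were weak, with a median over runs of 20 tags in B73_S and 24 in Mo17_S.

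**Figure D4:**
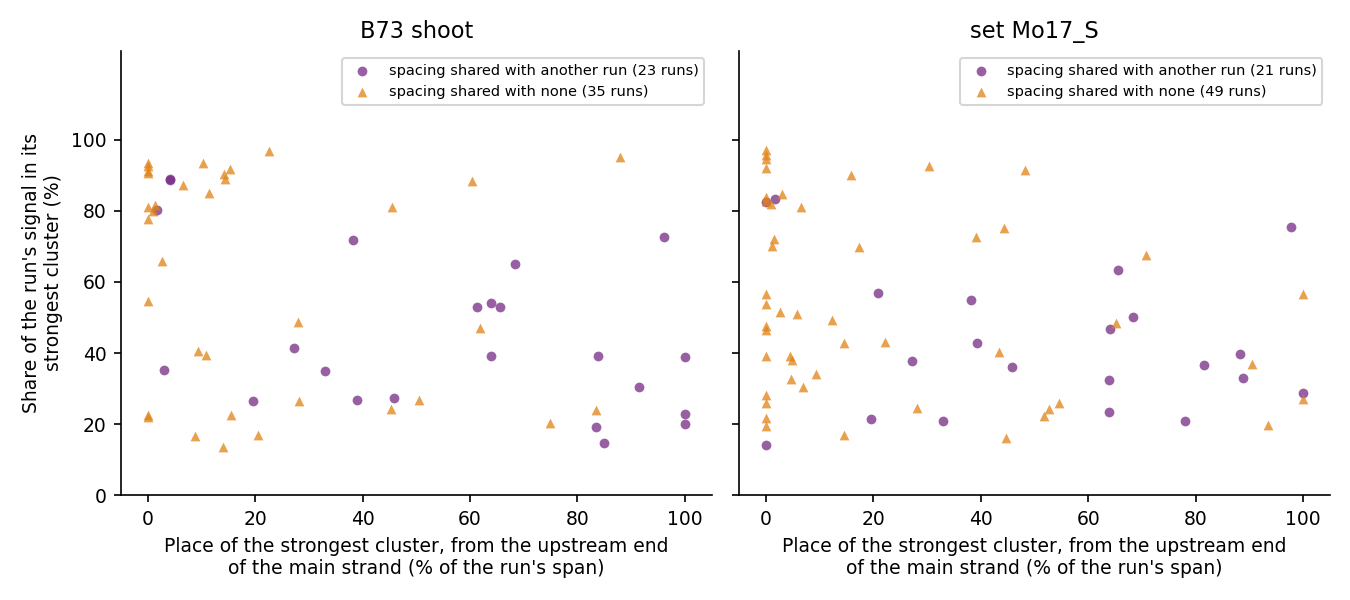
Share of a run's signal held by its strongest cluster (y axis, %) against its place from the upstream end of the main strand (x axis, % of the span), for 58 B73 shoot runs and 70 Mo17_S runs. Triangles, for runs with unshared spacing, gather at the left, with 23 of 35 and 32 of 49 in the first 20% of the span; circles, for runs with shared spacing, lie mostly further along.

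Of the 5 member clusters with the highest signal, 3 in B73_S and 4 in Mo17_S lay in the first 20% of their run. The first in B73_S, on the minus strand at chr9:103448299, had 10833 tags there, against 17 at the same position in B73_R. At chr10:10200807 on the minus strand, 15435 tags in B73_S and 21015 in Mo17_S stood against 51 in B73_R and 34 in Mo17_R. It is the first of 36 clusters of its run in B73_S and holds 91.1% of the run's signal there, while the other 35 had a median of 23 tags. At chr1:290521185 on the plus strand, tags were 17077 in B73_S and 8555 in Mo17_S, against 20 in the overlapping B73_R cluster and 38 in Mo17_R. These 3 clusters lead their B73_S runs, in which no other cluster had more than 234 tags.

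The other strong B73_S clusters lay further along. At chr3:7276404 the plus-strand cluster, 22.4% along its B73_S run, had 24060 tags in B73_S and 11891 in Mo17_S, against 8 in B73_R and 124 in Mo17_R, with 94.1% of its B73_S signal at 1 position. The cluster at chr2:207612002 is the exception in strand: it is on plus and held 95.2% of its run's signal in B73_S, while 6 of the 10 clusters of the run were on minus. It had 8363 tags in B73_S, against 16 in the overlapping B73_R cluster.

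The strongest cluster of Mo17_S, at chr5:85425497 on the plus strand, had 5638 tags in the overlapping cluster of B73_S and 18344 in Mo17_S, against 25 in B73_R and 18 in Mo17_R. In Mo17_S it held 95.6% of the signal of a run of 11 clusters. At chr6:54372880 on the plus strand, tags were 9019 in B73_S and 13236 in Mo17_S, against 70 in B73_R and 23 in Mo17_R. At chr6:164174811 on the minus strand, they were 3991 in B73_S and 9256 in Mo17_S, against 63 in B73_R and 24 in Mo17_R. At chr2:84571549, in a region whose spacing is shared in B73_S, they were 5290 in B73_S and 10688 in Mo17_S, against 14 in the overlapping B73_R cluster and 19 in Mo17_R. Each of these clusters had at least 18 root tags in Mo17_R and at least 14 in B73_R, far below either shoot set. Of the 51 B73_S runs with any B73_R cluster, 41 (80.4%) had one that overlapped the strongest shoot cluster, and of the 59 Mo17_S runs with any Mo17_R cluster, 51 (86.4%) did. It was also the strongest root cluster of the run in 34 and 40 runs. However, 26 of the B73_S runs and 26 of the Mo17_S runs held only 1 root cluster, which is the strongest by definition. The runs held 134 B73_R and 160 Mo17_R clusters in all, so most root clusters lay elsewhere in a run.

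Within a run, the clusters mostly faced one way. The median share on the main strand was 94.3% in B73_S, with a range from 54.5% to 100%, and 95.8% in Mo17_S, from 63.6% to 100%. At least 90% of clusters were on 1 strand in 44 of 58 B73_S runs and 60 of 70 Mo17_S runs. The main strand was plus in 30 and minus in 28 runs of B73_S, and plus in 33 and minus in 37 of Mo17_S, so neither strand prevailed over the genome. Runs that overlap root runs had medians of 97.5% in B73_S and 99.1% in Mo17_S.

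Clusters that lie as close as those of a run, with a median gap between neighbouring sites of 35 bp in B73_S and 43.75 bp in Mo17_S, have little room to be wide, so part of their narrow shape is set by the choice of runs. The interquantile width, between the positions of the 10th and 90th percentiles of a cluster's signal, was at most 10 bp in 88.4% of B73_S members (95% Wilson interval 86.7% to 89.9%) and 89.5% of Mo17_S members (87.9% to 90.8%). Clusters outside runs reached 43.0% (42.2% to 43.8%) in B73_S and 43.6% (42.8% to 44.3%) in Mo17_S. These intervals cover counting error only. A width of 1 bp was found in 46.8% of B73_S members and 52.8% of Mo17_S members, against 13.8% and 13.2% outside runs. Runs that overlap root runs were narrower still, with 94.8% of clusters in B73_S and 96.2% in Mo17_S at most 10 bp wide.

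A cluster's width can depend on its number of tags, so the same share was taken in steps of tags. Among clusters with 20 to under 50 tags at the dominant site, it was 94.1% in 607 B73_S members and 93.1% in 752 Mo17_S members, against 41.9% and 44.2% outside runs. From 100 to under 1000 tags, it was 84.4% in B73_S and 85.3% in Mo17_S, against 55.0% and 49.0% outside runs. At 1000 tags and above, the gap was small, with 79.5% of 44 B73_S members and 84.4% of 45 Mo17_S members, against 76.1% and 73.3% outside runs, and the intervals of members and other clusters overlapped in both sets.

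Clusters of a shoot and a root set that overlapped each other and no others were compared by a fixed size, at least 4-fold on log2(signal + 1) with the higher signal at least 1. Across all 12356 such pairs of B73_S and B73_R, 15.5% were higher in shoot by that rule and 4.31% higher in root. Of 89 member pairs, 75 were higher in shoot and 0 in root, with a median difference of 4.35 on the log2(signal + 1) scale, against 0.50 over all pairs. Across all 15405 pairs of Mo17_S and Mo17_R, 10.8% were higher in shoot and 4.95% in root. Of 114 member pairs, 86 were higher in shoot and 1 in root, with a median of 4.22 against 0.04 over all pairs. Nothing is read from these counts, since the regions were chosen for their shoot clusters. Most members have no root partner and are in no pair, and shoot and root signals were scaled by different exponents.

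The exceptions to low root values are few. At chr4:240651963 on the plus strand, B73_S had 2246 tags and B73_R 178, while Mo17_S had 5462 and Mo17_R 4648. These tags are not scaled for the depth of the sets. By signal, B73_S had 295.6 and B73_R 48.0, but Mo17_R was above Mo17_S, with 771.0 against 611.7. Summed tags of its region, scaled to an equal total per set, were 1636 in Mo17_S and 1692 in Mo17_R. The region was a run in B73_S, with 14 clusters, and not in Mo17_S, with 7. At chr2:33123506 on the minus strand, tags were 858 in B73_S and 250 in B73_R, and 2396 in Mo17_S and 807 in Mo17_R. The only member pair past the 4-fold rule with higher root signal is at chr6:10131433 on the minus strand, with 82 tags in Mo17_S and 470 in Mo17_R. It lies in chr6:10131288-10132178, where 453 tags in B73_S stood against 346 in B73_R, and 665 in Mo17_S against 944 in Mo17_R. Scaled to an equal total per set, root was higher in both: 189 in B73_S against 273 in B73_R, and 195 in Mo17_S against 337 in Mo17_R. Its summed signal was 84.3 in B73_S against 112.8 in B73_R, and 103.1 in Mo17_S against 152.0 in Mo17_R. The region listed 10 clusters in each shoot set, 8 in B73_R and 9 in Mo17_R, so the root lists fell just short of a run.

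The shoot sets mostly shared these regions. Of 74 regions, 54 were runs in both, 4 in B73_S only and 16 in Mo17_S only. Mo17_S is the deeper set, with 3409185 tags against 2394924 and 22875 listed clusters against 19880. Whether depth accounts for these counts was not tested. Where a region was a run in 1 shoot set only, the other still listed 1 to 9 clusters in it. The same dominant site was listed in both sets for 875 member clusters, 58.6% of those of B73_S and 51.1% of those of Mo17_S, and log2 tags at those 875 sites had a Pearson's r of 0.89. Outside runs, 51.5% of B73_S clusters and 45.2% of Mo17_S clusters had the same site in the other set. In runs that overlap root runs the shares were higher than in members, at 69.0% in B73_S and 56.1% in Mo17_S. With shared spacing, the share was 67.1% of clusters in B73_S runs and 58.4% in Mo17_S runs, against 47.8% and 44.1% in runs without.

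Across all 15161 1-to-1 pairs of B73_S and Mo17_S clusters, 1.39% were higher in B73_S by the 4-fold rule and 1.74% higher in Mo17_S. Of 953 member pairs, 6 were higher in B73_S (0.630%) and 6 in Mo17_S (0.630%). Among the 6 higher in B73_S are the copies at chr1:247788188 and chr1:247817772, and the cluster at chr9:103448299 where B73_S had a signal of 2542 and Mo17_S 346. The members' shares are below those over all pairs, and with 1 set each no replicate spread is known.

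Tags at dominant sites were also summed per region and scaled to an equal total per set. On that scale, 11 of 74 regions were at least 2-fold higher in B73_S and 8 in Mo17_S, around a median log2 difference of 0.04. Over all 117 regions made from the runs of both shoot sets, which include these 74, 16 (13.7%) were higher in B73_S and 8 (6.84%) in Mo17_S. All 8 that were higher in Mo17_S are thus among the 74, and nothing is read from these counts. By summed deposited signal, 7 and 8 of the 74 differed by 2-fold, against 10 (8.55%) and 9 (7.69%) of all 117. At 4-fold by tags, 5 were higher in B73_S and 0 in Mo17_S, against 5.98% and 0% over all 117. The scales differ because tags are those of dominant sites alone and the signal has an exponent per set.

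The region at chr2:207611878-207612812 had 8619 tags in B73_S and 709 in Mo17_S, a scaled log2 difference of 4.11, and 8363 of the B73_S tags were at chr2:207612002 alone. By signal its difference was 3.18 on the log2 scale. The region at chr6:146189552-146189966 had 19425 tags in B73_S and 1983 in Mo17_S, a log2 difference of 3.80 by tags and 2.31 by signal, and no cluster in either root set. The region at chr9:103447133-103448432 had 11373 tags in B73_S and 1668 in Mo17_S, a log2 difference of 3.28 by tags and 2.08 by signal. In the other direction, chr2:143429507-143430298 had 107 tags in B73_S and 543 in Mo17_S (log2 difference -1.83 by tags and -2.03 by signal), and chr3:147437310-147440236 had 1578 in B73_S and 7842 in Mo17_S (-1.80 by either).

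**Figure D5:**
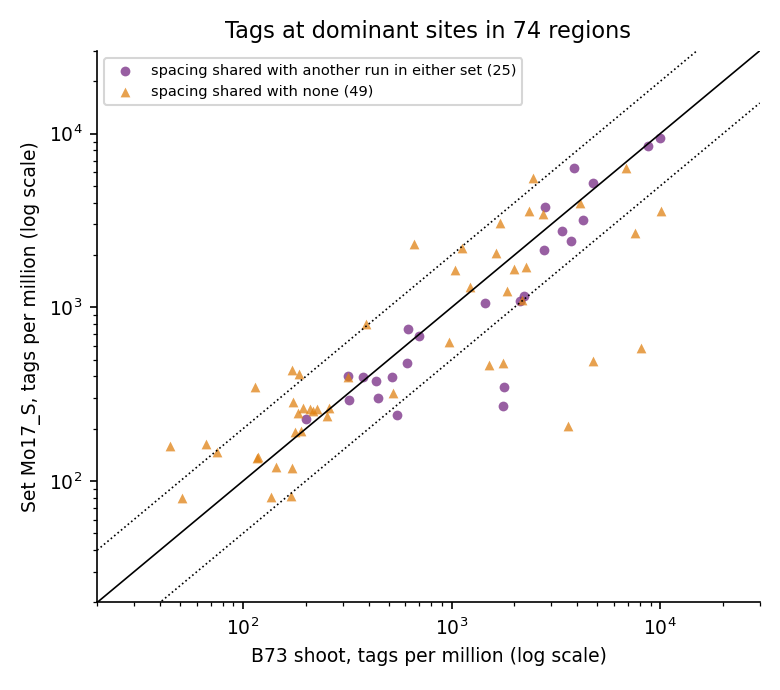
Tags at dominant sites in each of the 74 regions, scaled to an equal total per set, B73 shoot (x axis) against Mo17_S (y axis), both on log scales, with equality as a solid line and 2-fold differences dotted. Circles mark the 25 regions with shared spacing in either set and triangles the other 49; 19 regions lie beyond the dotted lines, and those farthest off lie below, with higher values in B73 shoot.

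At the limit of the rule, the values of runs just inside and just outside overlapped. Runs of exactly 10 clusters had summed signals of 82.7 to 2268 in the 5 of B73_S and 50.8 to 1893 in the 10 of Mo17_S. Stretches of 9 clusters, which the rule leaves out, had 58.6 to 262 in the 6 of B73_S and 84.8 to 1079 in the 13 of Mo17_S.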

How the data were processed

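The labels' protocols describe random-primed cDNA, capture of biotinylated caps and tags cut by EcoP15I, and the submitters' processing notes name Bowtie2 2.0.4. The sources used here do not give the clustering tool, its thresholds, the genome build or the libraries behind each set. The authors deposited clusters with coordinates, strand, a normalized signal, the dominant site, interquantile positions and a shape score. The score is not named in the files and is not used in the text. Signals at dominant sites follow a power law of the tags, with a constant and an exponent per set (0.888 in B73_S, 0.877 in Mo17_S, 1.09 in B73_R, 1.01 in Mo17_R), and inverting this gave whole tags within 0.01 tags at 100% of sites. PCR copies count as tags, since no molecular identifiers are described.

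Runs, regions, 1-to-1 overlaps of at least 1 bp, spacing matches and widths (clusters with signal of at least 1) were computed with Python 3.11.15, numpy 2.4.6, pandas 2.3.3, scipy 1.17.1, networkx 3.6.1 and matplotlib 3.10.9. The steps were tested on simulated data. The regions, size rule and lists were chosen with earlier results of these data known. The text names, in each shoot set, the 5 runs with the most clusters, the 5 with the highest signal and the 5 strongest member clusters. It also names the 3 families with the most runs and some of the strongest root members. Regions named for their difference between shoot sets, and single pairs, were chosen after their values were seen. A list of plastid genes could not be scored. No test was made, as the files hold 1 value per set.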

Additional observations from a re-analysis of the deposited data

How the results depend on the processing

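Of 84 alternative values for 20 results, 49 stayed close to the reported value and 35 moved, and no direction changed. A minimum of 5 clusters per run gave 105 shoot-only runs in B73_S and 131 in Mo17_S. A minimum of 20 gave 37 and 42 runs, but 2801 members in B73_S, 3336 in Mo17_S, 280 in B73_R and 317 in Mo17_R, since fewer root runs then drop a shoot run. Keeping clusters with a signal of at least 1 gave 3446 members in B73_S and 4069 in Mo17_S, with 22.3% of signal in B73_S, 20.2% in Mo17_S, 0.276% in B73_R and 0.298% in Mo17_R. By tags, the shares were 13.6%, 10.9%, 0.199% and 0.285% in that order. A gap of 4000 bp gave 11.9%, 10.3%, 0.176% and 0.280%, and a gap of 1000 bp gave 9.92% in Mo17_S and 0.163% in B73_R. Runs linked to another shoot-only run numbered 39 in B73_S and 60 in Mo17_S when sites could differ by 1 bp, 32 in Mo17_S with 5 shared sites, and 2 in B73_S and 4 in Mo17_S when 75% of the smaller run had to be shared, so the number of linked runs rests on these settings. Members at most 5 bp wide made up 81.5% in B73_S and 83.2% in Mo17_S, those at most 20 bp wide 92.9% and 93.4%, and sharp members with a signal of at least 5 made up 85.1% and 86.7%. After the data were seen, requiring at least 90% of shared sites on the matching strand was added and left 15 linked runs in each set, and letting a root stretch of 5 clusters drop a shoot run left 46 and 59 runs. No paired analysis was possible because the columns carry no library, and leaving out replicates was not run for the same reason. The sets differ in depth, from 1267305 tags in B73_R to 3409185 in Mo17_S, which limits what root lists can show.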
